A study of Mus musculus with 11 samples.

Results

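Heat shock chaperones bind unfolded or partly folded proteins and help them to fold, and their genes form the core of the heat shock response. In that response heat shock factor 1, encoded by Hsf1, binds inverted repeats of GAA near the start of its target genes and raises their transcription when unfolded protein accumulates. Some chaperone genes are nearly silent until cells are stressed (inducible), whereas others are transcribed at a high level in resting cells (constitutive). The 10 genes described here were listed by symbol, and all 10 were found among the 54418 genes of the count table through their GENCODE names. The inducible genes were Hspa1a, Hspa1b, Hsph1, Dnajb1, Hsp90aa1 and Bag3, and the constitutive genes were Hspa8, Hsp90ab1, Hspd1 and Hspe1, a division that came from general knowledge.

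The libraries were made from thymocytes, immature T cells, taken from 4 wt mice, 4 Zmat3-/- mice and 3 mice that lacked Puma, p21 and Zmat3 (Puma-/- p21-/- Zmat3-/-, TKO). All were 8 to 12 weeks old and on a C57BL/6-WEHI background, no treatment is given in the labels, and TKO mice came from crosses of Zmat3-/- with Puma-/- p21-/- mice. ZMAT3 is an RNA binding protein, p21 a cell cycle inhibitor and PUMA an inducer of apoptosis, and all 3 are encoded by target genes of TRP53. The TKO mice lacked PUMA and p21 together, so these losses cannot be told apart. Each library came from a single cell suspension of a whole thymus, and 14 thymocyte marker genes added up to 14800 to 21000 CPM, the count scaled to a common library total, in every mouse. In RNA from a whole suspension, fewer cells of a type and less RNA per cell cannot be told apart. The 16 thymic stroma genes listed summed to 208 to 329 CPM in wt mice, 254 to 277 CPM in Zmat3-/- mice and 220 to 262 CPM in TKO mice, and the 15 myeloid genes to 305 to 608, 396 to 560 and 276 to 596 CPM. None of the marker genes was at 0 in all mice of a genotype. The sums hide single stroma genes that moved both ways in Zmat3-/- against wt, with log2 fold changes from −0.59 (Ccl25) to 1.30 (Col3a1). Of the 14 stroma genes tested, 9 were above 0 and 0 had an edgeR adjusted p under 0.05 in the test described below.

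The libraries held 17669715 to 80207003 counts (median 33295078), and reads of the mutated genes were still counted in the mutant mice, which such counts per gene do not place by exon. Zmat3 had 9.88 to 26.8 CPM in wt, 5.34 to 6.85 CPM in Zmat3-/- and 7.78 to 8.25 CPM in TKO mice. Bbc3, which encodes PUMA, had 16.8 to 20.1 CPM in wt and 12.9 to 15.2 CPM in TKO mice, and Cdkn1a, which encodes p21, had 3.53 to 10.4 and 2.49 to 3.52 CPM. The wt mice fell into 2 pairs. Across genes, which are not independent replicates, log2 CPM correlated at 0.982 within wt mice 1 and 2 and within wt mice 3 and 4, and at 0.895 to 0.924 between these pairs. The level of Xist separated the same pairs: it was high (505 to 1480 CPM) in the mice numbered 1 and 2 among wt and Zmat3-/- and in TKO mouse 1. In the remaining 6 mice it was low (0.806 to 2.54 CPM), and the labels give no sex. Mitochondrial genes took 4.25 to 6.31% of the counts of wt mice, 6.54 to 14.6% of those of Zmat3-/- mice and 3.86 to 9.29% of those of TKO mice.

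The levels of the constitutive and inducible genes overlapped in order. Per kilobase of exon, the mean level over the 11 mice was 438 CPM for Hsp90ab1, 318 CPM for Hspa8 and 159 CPM for Hsp90aa1, the main cytosolic HSP90 and HSP70 genes. Hspd1 (74.2 CPM per kilobase), Hspe1 (54.3), Dnajb1 (50.1), Hspa1b (37.2) and Hspa1a (15.1) followed, and Hsph1 (7.76) and Bag3 (1.32) were the lowest. The ranges over mice of neighbours in this order overlapped, except between Hsp90aa1 (108 to 200 CPM per kilobase) and Hspd1 (59.2 to 98.7) and between Hsph1 (4.77 to 14.0) and Bag3 (0.856 to 1.88). Hspa1a and Hspa1b stood apart in how much they varied between mice. Their highest CPM was 512 and 260 times the lowest, whereas in the remaining 8 genes this ratio lay between 1.59 and 2.94.

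**Figure D1:**
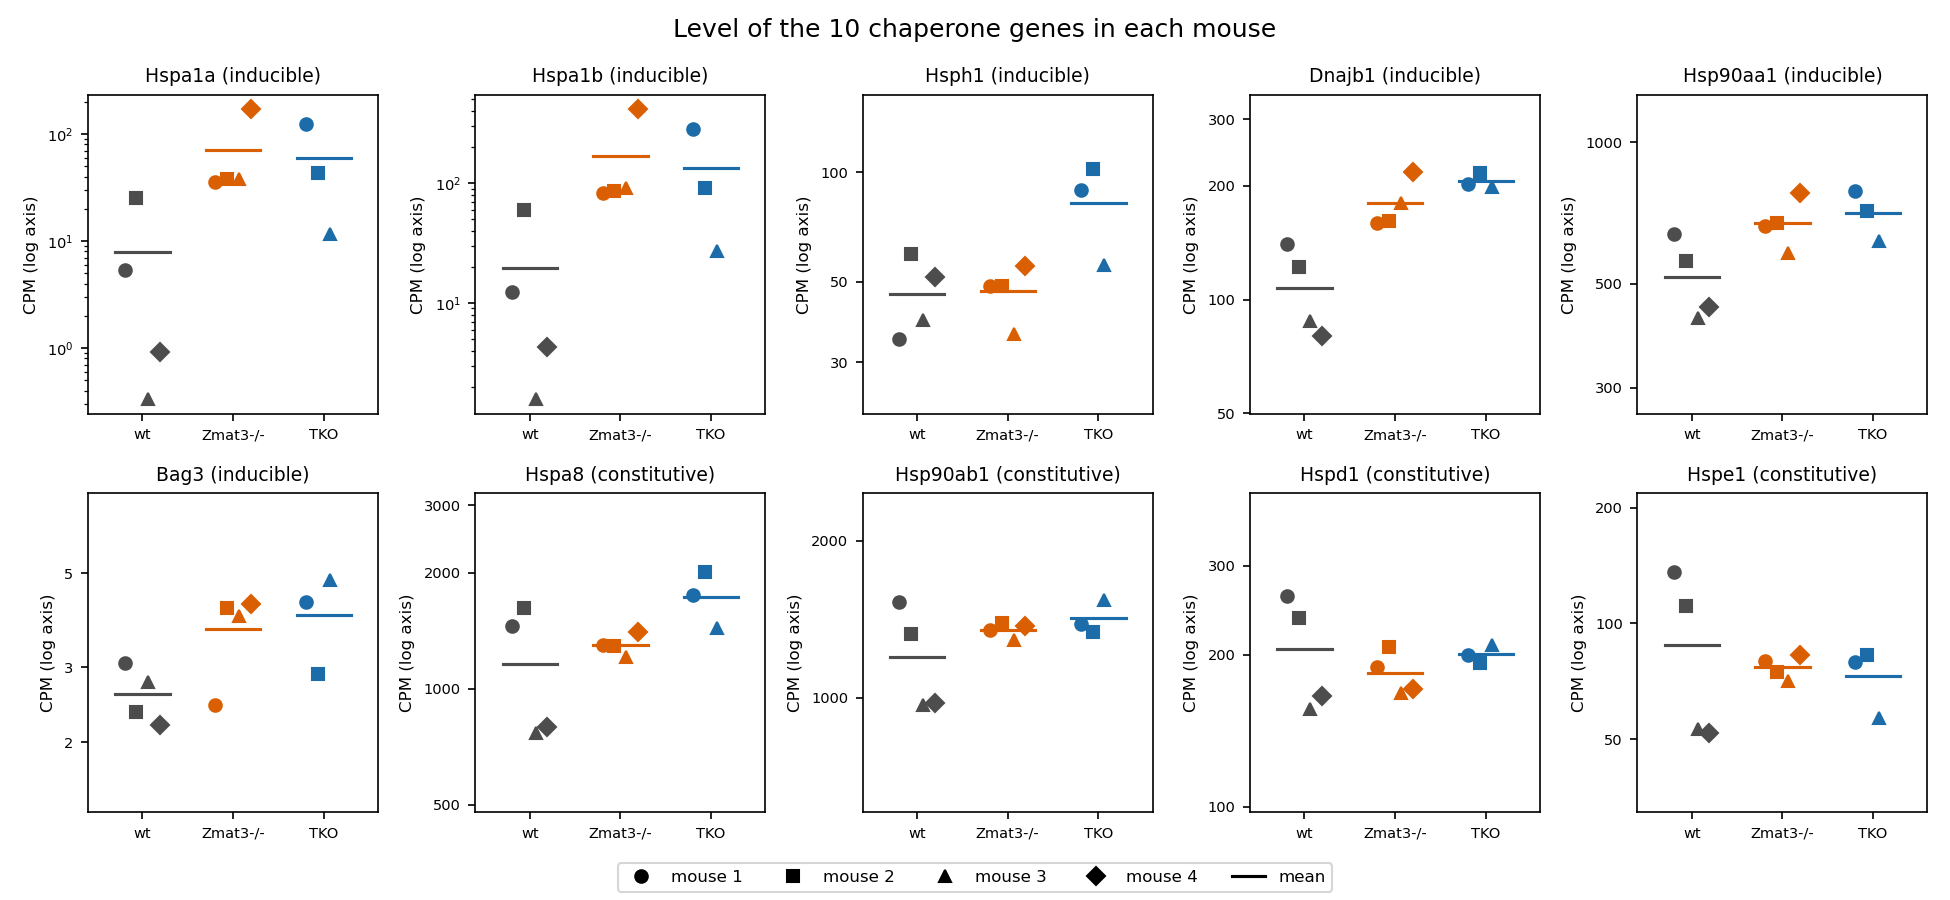
CPM on a log axis of each chaperone gene in each mouse (points, by replicate number) with the mean of each genotype (line). Hspa1a and Hspa1b span more than any other member, wt mice 3 and 4 are the lowest for both, and Dnajb1 is higher in all mutant mice than in all wt mice.

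In the main fits, which held no covariate, none of the 10 chaperone genes passed the thresholds in any comparison of genotypes. Genes were compared with edgeR's quasi-likelihood test across all genes that passed a filter on low counts, with Benjamini-Hochberg adjustment, and called at an adjusted p under 0.05 and an absolute log2 fold change (log2FC) above 1.5. All 10 members passed the filter in each comparison. In Zmat3-/- against wt, 0 of 10 were called, against 0.319% of the 13488 genes tested, and 0 had an adjusted p under 0.05 at any fold (0.764% of all genes). With the replicate number as a block these counts were also 0, and the genes called fell from 43 to 8. In TKO against wt, 0 of 10 were called and 0 had an adjusted p under 0.05, against 0.241% and 0.294% of the 13260 genes tested. In TKO against Zmat3-/- these counts were also 0, against 0.122% and 0.221% of 13124 genes. Without adjustment, 4 members had p under 0.05 in Zmat3-/- against wt, namely Hspa1a, Hspa1b, Dnajb1 and Hsp90aa1, all higher in Zmat3-/- mice (7.18% of all genes had p under 0.05 and were higher). In TKO against wt, Hsph1 and Dnajb1 had p under 0.05, both higher in TKO mice (4.17% of all genes). Hsph1 and Hspa8 did in TKO against Zmat3-/-, both higher in TKO mice (2.26% of all genes). DESeq2 gave Dnajb1 an adjusted p under 0.05 in both comparisons with wt and no member one in TKO against Zmat3-/-. The study's own fit held sex and surrogate variables. With 1 surrogate variable, a number per mouse estimated from the counts, 6 members had an edgeR adjusted p under 0.05 in each comparison with wt. Of these, 2 were called. Among all genes, 5103 and 2378 then had an adjusted p under 0.05, and 215 and 176 were called. With the Xist level added, the counts of members were the same. Both comparisons with wt use the same wt mice.

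Hspa1a and Hspa1b encode the stress-inducible cytosolic HSP70 proteins and lie next to each other on chromosome 17. On GRCm38 Hspa1a (ENSMUSG00000091971.3) runs from 34969190 to 34972156 and Hspa1b (ENSMUSG00000090877.3) from 34956436 to 34959238, both on the minus strand, 5.87 and 5.86 Mb from Cdkn1a, which is mutated in TKO mice. The 250 bases before their starts, in the RefSeq promoter table (GRCm38.p6), are shown because they are nearly the same in both genes and hold the same match to a pair of inverted GAA units. The Hspa1a stretch is chr17:34972157-34972406 and the Hspa1b stretch chr17:34959239-34959488, read 5′ to 3′ on the minus strand, with the match in capitals.
Hspa1a: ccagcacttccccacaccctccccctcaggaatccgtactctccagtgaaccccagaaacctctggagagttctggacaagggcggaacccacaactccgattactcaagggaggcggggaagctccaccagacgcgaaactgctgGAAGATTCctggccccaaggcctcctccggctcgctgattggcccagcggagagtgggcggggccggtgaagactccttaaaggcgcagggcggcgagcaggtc
Hspa1b: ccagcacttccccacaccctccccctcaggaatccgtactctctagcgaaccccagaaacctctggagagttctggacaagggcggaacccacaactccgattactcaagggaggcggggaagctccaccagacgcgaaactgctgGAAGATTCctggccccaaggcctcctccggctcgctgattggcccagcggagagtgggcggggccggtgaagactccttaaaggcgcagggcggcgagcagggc
These stretches were 98.8% identical. Counted from 1 at the 5′ end, with the base of Hspa1a first, they differed at C44T, T47C and T249G. The patterns searched in the 250 bases before each start were GAANNTTC or TTCNNGAA, 2 inverted units, and GAANNTTCNNGAA or TTCNNGAANNTTC, 3 units in a row, which contain the shorter patterns. Both pairs of patterns cover both strands. Of 32851 such stretches in the RefSeq table, 12.8% held 2 units and 0.466% held 3. Both genes held 1 match, GAAGATTC, from base −104 to base −97 before the start.

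The transcripts also share sequence, so counts can be split between these genes. Of the words of 31 bases in Hspa1a and in Hspa1b, 63.8% and 67.6% also occur in the other gene. The counts still kept a narrow ratio, the level of Hspa1b per kilobase of exon being 2.24 to 2.56 times that of Hspa1a in 9 mice and 5.03 and 4.94 times in wt mice 3 and 4. In those wt mice Hspa1a rested on 8 and 24 counts. Gm10501, an antisense gene that shares 12.1% of the words of Hspa1a, had 816 counts over all mice against 15696 for Hspa1a. The libraries do not mark strand, so its reads from the shared part cannot be told apart from those of Hspa1a.

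Hspa1a had 5.32, 25.1, 0.332 and 0.923 CPM in wt mice 1 to 4. It had 35.9, 38.1, 38.0 and 170 CPM in Zmat3-/- mice 1 to 4, and 123, 42.8 and 11.6 CPM in TKO mice 1 to 3. All 4 Zmat3-/- mice were above all 4 wt mice, TKO mouse 3 was below wt mouse 2, and Zmat3-/- mouse 4 and TKO mouse 1 were far above the other mutant mice. The log2FC was 3.16 in Zmat3-/- against wt (8.93-fold, SE 1.16, edgeR adjusted p = 0.238), 2.91 in TKO against wt (SE 1.31, adjusted p = 0.494) and −0.24 in TKO against Zmat3-/- (SE 0.762, adjusted p = 0.985). Hspa1b had 12.4, 60.0, 1.58 and 4.31 CPM in wt mice 1 to 4, 83.1, 85.5, 90.4 and 411 CPM in Zmat3-/- mice 1 to 4, and 282, 90.8 and 27.3 CPM in TKO mice 1 to 3. The order of the mice was nearly that of Hspa1a (rho = 0.991 over the 11 mice). Its log2FC was 3.11 (SE 1.10, edgeR adjusted p = 0.22), 2.79 (SE 1.21, adjusted p = 0.485) and −0.32 (SE 0.772, adjusted p = 0.985) in the same comparisons. With their counts added as 1 gene, the log2FC was 3.13 in Zmat3-/- against wt (SE 1.13, edgeR adjusted p = 0.231) and 2.83 in TKO against wt (SE 1.25, adjusted p = 0.491). The size depended on single mice. Without Zmat3-/- mouse 4 the log2FC of Hspa1a in Zmat3-/- against wt was 2.25 and that of Hspa1b 2.16, and without wt mouse 2 they were 4.95 and 4.75. In TKO against wt they were 1.81 and 1.62 without TKO mouse 1, and 4.72 and 4.44 without wt mouse 2. In TKO against Zmat3-/- the sign turned without Zmat3-/- mouse 4, to 0.67 and 0.64.

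Hspa8 encodes HSC70, the HSP70 of resting cells, on chromosome 9 (40800984 to 40810087, plus strand). It had 1452, 1624, 765 and 794 CPM in wt mice 1 to 4, 1301, 1292, 1208 and 1408 CPM in Zmat3-/- mice 1 to 4, and 1749, 2014 and 1437 CPM in TKO mice 1 to 3. Zmat3-/- mice lay between the wt pairs, and the 3 TKO mice lay above the 4 Zmat3-/- mice. The log2FC was 0.18 in Zmat3-/- against wt (SE 0.251, edgeR adjusted p = 0.736), 0.56 in TKO against wt (SE 0.326, adjusted p = 0.584) and 0.38 in TKO against Zmat3-/- (SE 0.152, adjusted p = 0.983). Without TKO mouse 3 the last had an adjusted p of 0.0444 (edgeR), at a log2FC of 0.57. The level of Hspa1a and Hspa1b together, per kilobase, as a share of that of Hspa8, was 0.00379 to 0.0791 for wt mice, 0.138 to 0.622 for Zmat3-/- mice and 0.0408 to 0.350 for TKO mice. All Zmat3-/- mice were above all wt mice in this ratio, and TKO mouse 3 was below wt mouse 2.

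Dnajb1 was the member with the smallest p in both comparisons with wt. It encodes HSP40, a J-domain protein that passes substrates to HSP70 and stimulates its ATPase, and lies on chromosome 8 (83608193 to 83612653, plus strand). It had 140, 122, 87.9 and 79.9 CPM in wt mice 1 to 4, 160, 161, 180 and 217 CPM in Zmat3-/- mice 1 to 4, and 202, 216 and 198 CPM in TKO mice 1 to 3. Every mutant mouse was above every wt mouse. The log2FC was 0.75 in Zmat3-/- against wt (1.68-fold, SE 0.192, edgeR adjusted p = 0.116), 0.90 in TKO against wt (1.87-fold, SE 0.213, adjusted p = 0.236) and 0.15 in TKO against Zmat3-/- (SE 0.121, adjusted p = 0.983). DESeq2 gave an adjusted p of 0.00746 and 0.00572 in the comparisons with wt, and the fit of all 3 genotypes together gave an edgeR adjusted p of 0.0445 in TKO against wt. The stretches before the RefSeq starts of Dnajb1 held no match to either pattern.

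Hsph1 encodes the HSP110 protein that exchanges nucleotide on HSP70, on chromosome 5 (149614287 to 149636376, minus strand). It had 34.7, 59.6, 39.1 and 51.6 CPM in wt mice 1 to 4, 48.7, 48.8, 35.9 and 55.2 CPM in Zmat3-/- mice 1 to 4, and 89.4, 102 and 55.7 CPM in TKO mice 1 to 3. The wt and Zmat3-/- mice covered the same range, and the TKO mice were above all Zmat3-/- mice, mouse 3 by little. The log2FC was 0.033 in Zmat3-/- against wt (SE 0.197, edgeR adjusted p = 0.942), 0.82 in TKO against wt (SE 0.290, adjusted p = 0.426) and 0.78 in TKO against Zmat3-/- (SE 0.230, adjusted p = 0.732). The last had an adjusted p under 0.05 with no filter on low counts (0.00192), with 1 surrogate variable (0.019) and without TKO mouse 3 (0.0063), all from edgeR. It had 1 match, TTCTCGAA at chr5:149636362-149636369 on the minus strand, 54 or 33 bases before its RefSeq starts and within the gene as GENCODE places it.

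Bag3, a cochaperone that links HSP70 to selective autophagy, is on chromosome 7 (128523616 to 128546981, plus strand). It was the lowest member, at 3.07, 2.36, 2.78 and 2.19 CPM in wt mice 1 to 4, 2.45, 4.13, 3.97 and 4.23 CPM in Zmat3-/- mice 1 to 4, and 4.28, 2.89 and 4.82 CPM in TKO mice 1 to 3. A mutant mouse of each genotype lay within the wt range. The log2FC was 0.51 in Zmat3-/- against wt (SE 0.230, edgeR adjusted p = 0.325), 0.57 in TKO against wt (SE 0.255, adjusted p = 0.491) and 0.073 in TKO against Zmat3-/- (SE 0.238, adjusted p = 0.986). The stretch before its RefSeq start held no match.

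The HSP90 genes are an inducible and a constitutive copy of the cytosolic chaperone that matures kinases and steroid receptors. The inducible Hsp90aa1, on chromosome 12 (110690605 to 110702728, minus strand), had 639, 558, 423 and 445 CPM in wt mice 1 to 4, 662, 672, 580 and 778 CPM in Zmat3-/- mice 1 to 4, and 788, 715 and 617 CPM in TKO mice 1 to 3. All mutant mice but Zmat3-/- mouse 3 and TKO mouse 3 were above all wt mice. The log2FC was 0.39 in Zmat3-/- against wt (SE 0.160, edgeR adjusted p = 0.28), 0.43 in TKO against wt (SE 0.210, adjusted p = 0.529) and 0.035 in TKO against Zmat3-/- (SE 0.141, adjusted p = 0.992). The constitutive Hsp90ab1, on chromosome 17 (45567775 to 45573271, minus strand) and 16.5 Mb from Cdkn1a, had 1528, 1327, 968 and 976 CPM in wt mice 1 to 4. It had 1348, 1390, 1291 and 1372 CPM in Zmat3-/- mice 1 to 4 and 1384, 1338 and 1540 CPM in TKO mice 1 to 3. The mutant mice lay close together, beside wt mice 1 and 2 and above wt mice 3 and 4. The log2FC was 0.18, 0.20 and 0.024 (SE 0.166, 0.207 and 0.0784, edgeR adjusted p = 0.615, 0.713 and 0.986) in the 3 comparisons. Per kilobase, Hsp90aa1 stood at 0.319 to 0.348 of the level of Hsp90ab1 among wt mice, at 0.343 to 0.433 among Zmat3-/- mice and at 0.306 to 0.435 among TKO mice. The wt mice, which differed in both genes, were close in this ratio, and Zmat3-/- mouse 3 and TKO mouse 3 had the lowest ratios of their genotypes.

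Hspd1 and Hspe1 encode HSP60 and HSP10, the mitochondrial chaperonin and its lid, and are transcribed away from each other on chromosome 1. Hspd1 spans 55077835 to 55088243 on the minus strand and Hspe1 55088132 to 55091307 on the plus strand, so the annotated genes overlap at their 5′ ends, and reads from the overlap cannot be assigned by strand. A single stretch that matches the pattern lies before a RefSeq start of each gene, at chr1:55088059-55088076, inside Hspd1 as GENCODE places it, and is shown on each gene's own strand because it holds more than 2 units in a row in either direction.
Hspe1, bases −89 to −72: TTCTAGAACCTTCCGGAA
Hspd1, bases −144 to −127: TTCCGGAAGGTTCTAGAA
All bases, in capitals, belong to the match. Of the 7 members matched to the RefSeq promoter table, only Hspd1 and Hspe1 held 3 units in a row. Hspa8, Hsp90aa1 and Hsp90ab1 were not matched. Hspd1 had 261, 237, 156 and 166 CPM in wt mice 1 to 4, 189, 207, 168 and 171 CPM in Zmat3-/- mice 1 to 4, and 199, 192 and 209 CPM in TKO mice 1 to 3. Hspe1 had 136, 111, 53.1 and 51.8 CPM in wt mice 1 to 4, 79.9, 75.0, 71.0 and 82.7 CPM in Zmat3-/- mice 1 to 4, and 79.4, 82.9 and 56.7 CPM in TKO mice 1 to 3. For both genes the mutant mice lay between the wt pairs. The log2FC of Hspd1 was −0.15, −0.070 and 0.076 and that of Hspe1 −0.18, −0.29 and −0.11 in Zmat3-/- against wt, TKO against wt and TKO against Zmat3-/-, with edgeR adjusted p from 0.69 to 0.983. Over the 11 mice their log2 CPM correlated at r = 0.781 (rho = 0.645), given as a description over mice that share genotypes.

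**Figure D2:**
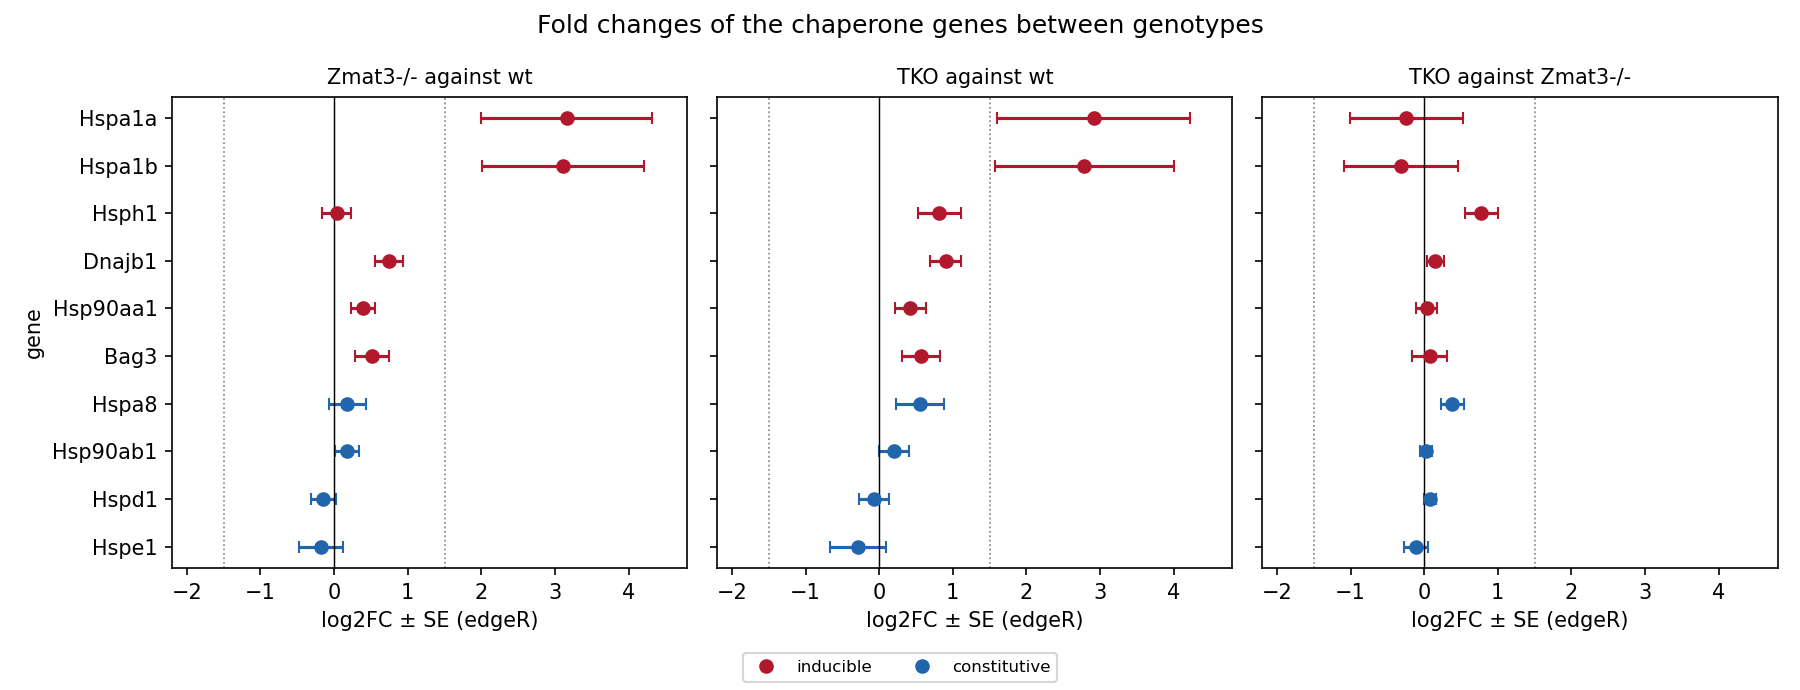
log2FC of the 10 chaperone genes in the 3 comparisons, with SE from edgeR as error bars and dotted lines at the fold threshold of 1.5. Hspa1a and Hspa1b lie beyond 1.5 in both comparisons with wt, with the widest errors, and the constitutive genes lie near 0 in all but Hspa8 in the comparisons of TKO mice.

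With all members, the inducible genes lay higher relative to the constitutive ones in the mutant mice, and most of that distance came from Hspa1a and Hspa1b. The median log2FC was 0.63 for the 6 inducible and 0.016 for the 4 constitutive genes in Zmat3-/- against wt (−0.026 for all genes tested), 0.86 and 0.067 in TKO against wt (−0.037), and 0.054 and 0.050 in TKO against Zmat3-/- (−0.0083). The log2FC was above 0 for 8, 8 and 7 of the 10 members, against 46.8%, 45.8% and 47.3% of all genes. The values of the groups did not overlap for 3 members in Zmat3-/- against wt (Hspa1a, Hspa1b and Dnajb1, all higher, as 7.31% of all genes were). They did not overlap for 1 in TKO against wt (Dnajb1, higher, as 6.95% of all genes were) and for 2 in TKO against Zmat3-/- (Hsph1 and Hspa8, higher, as 3.49% of all genes were). In each mouse, the mean log2 CPM of the inducible genes minus that of the constitutive genes was −4.17, −3.30, −4.58 and −4.15 in wt mice 1 to 4. It was −2.79, −2.66, −2.60 and −1.78 in Zmat3-/- mice 1 to 4 and −1.96, −2.60 and −3.10 in TKO mice 1 to 3. Every mutant mouse was above every wt mouse, and TKO mouse 3 was the nearest to them. The mean difference was −4.05 ± 0.536 (SD, n = 4) in wt, −2.46 ± 0.461 (SD, n = 4) in Zmat3-/- and −2.55 ± 0.572 (SD, n = 3) in TKO mice. Zmat3-/- mice were thus 1.59 and TKO mice 1.49 above wt mice on the log2 scale, and the TKO mean was −0.097 from the Zmat3-/- mean. Without Hspa1a and Hspa1b these distances were 0.36, 0.52 and 0.16, and Zmat3-/- and wt mice overlapped. The values were then −3.25, −3.13, −2.64 and −2.66 in wt mice 1 to 4, −2.75, −2.57, −2.57 and −2.35 in Zmat3-/- mice 1 to 4, and −2.32, −2.46 and −2.41 in TKO mice 1 to 3. Zmat3-/- mouse 1 was below wt mice 3 and 4, and the other mutant mice were above all wt mice. Between Zmat3-/- and wt mice of the same number the differences were 0.50, 0.55, 0.069 and 0.31 for numbers 1 to 4, above 0 in all 4. The numbers are not known to mark pairs, and numbers 1 and 2 also mark the mice with high Xist. The Zmat3-/- mean was 0.62 above that of wt mice 1 and 2 and 0.088 above that of wt mice 3 and 4, and the TKO mean 0.79 and 0.25. No test was made of these distances, because the members were chosen.

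**Figure D3:**
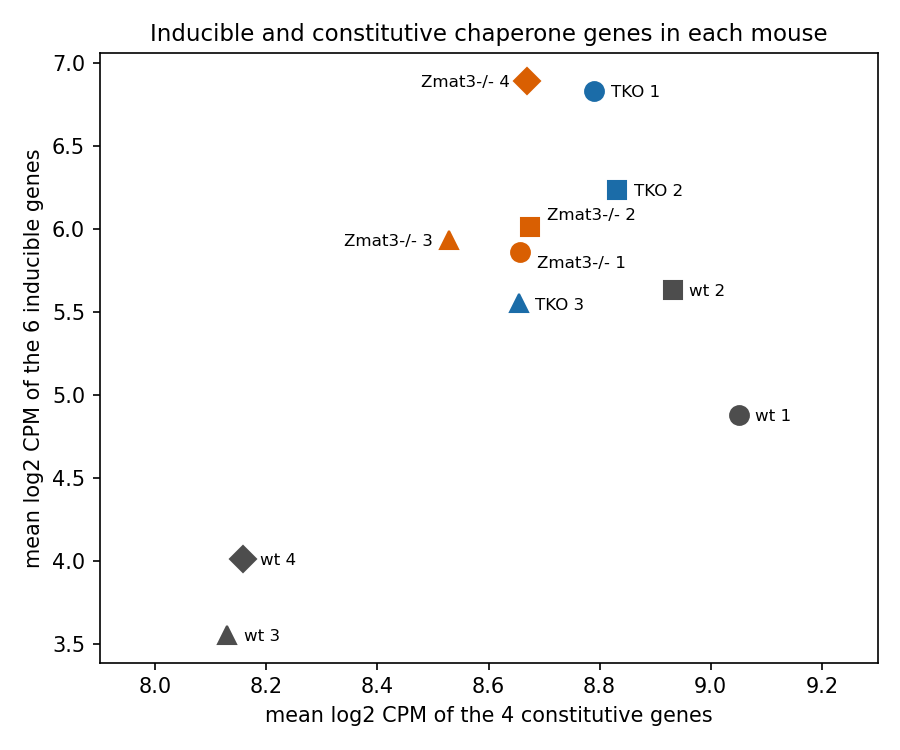
Mean log2 CPM of the 6 inducible genes against that of the 4 constitutive genes, 1 point per mouse. wt mice 3 and 4 are lowest on both axes, wt mice 1 and 2 are highest on the constitutive axis, and the mutant mice lie between them on that axis and mostly above all wt mice on the other.

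The direction of Hspa8, Hspd1, Hspe1 and Hsp90ab1 in Zmat3-/- against wt turned with the wt pair that was used. The log2FC of all inducible genes was above 0 against either pair. For Hsph1 it was only 0.014 against wt mice 1 and 2 and 0.033 against wt mice 3 and 4. Both wt mice 1 and 2 were above both wt mice 3 and 4 for 8 of the 10 members, all but Hsph1 and Bag3, and so were 43.6% of 13522 genes, with 38% the other way. The mean of wt mice 1 and 2 was 24.2 times that of wt mice 3 and 4 for Hspa1a, 12.3 times for Hspa1b, 2.36 times for Hspe1 and 1.97 times for Hspa8. Markers of other cell types split the wt mice as well. In wt mice 1 to 4 the myeloid genes summed to 604, 608, 311 and 305 CPM, the B cell genes to 741, 862, 500 and 491 CPM and the thymic stroma genes to 329, 319, 208 and 245 CPM, so wt mice 3 and 4 were the lower pair in each. The erythroid genes, at 1080, 880, 8560 and 2170 CPM, and the thymocyte genes, at 15000, 15600, 17900 and 16800 CPM, were higher in wt mice 3 and 4. The part of these cells in the levels of the chaperone genes was not tested. Within the mice with high Xist, Hspa1a was at 5.32 to 25.1 CPM in wt, 35.9 to 38.1 CPM in Zmat3-/- and 123 CPM in the TKO mouse. Within those with low Xist, it was at 0.332 to 0.923, 38.0 to 170 and 11.6 to 42.8 CPM, so wt was the lowest in each. Dnajb1 was at 122 to 140 CPM in wt, 160 to 161 CPM in Zmat3-/- and 202 CPM in TKO mice with high Xist, and at 79.9 to 87.9, 180 to 217 and 198 to 216 CPM in those with low Xist. Hspe1 went opposite ways. It was at 111 to 136 CPM in wt and 75.0 to 79.9 CPM in Zmat3-/- mice with high Xist, and at 51.8 to 53.1 and 71.0 to 82.7 CPM in those with low Xist. Hspa8 did likewise, at 1452 to 1624 against 1292 to 1301 CPM and at 765 to 794 against 1208 to 1408 CPM.

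With either wt pair left out, some members passed. These fits were chosen after seeing the data and keep 2 wt mice that are close to each other. In Zmat3-/- against wt, 7968 of 14204 genes had an edgeR adjusted p under 0.05 without wt mice 3 and 4, and 4649 of 14096 without wt mice 1 and 2. The cause of these large counts was not tested. With wt mice 3 and 4 left out, Hspa1a (log2FC 2.21, edgeR adjusted p = 0.0419), Hspa1b (2.21, adjusted p = 0.0467) and Dnajb1 (0.47, adjusted p = 0.0138) were higher in Zmat3-/- mice, and Hspd1 (−0.42, adjusted p = 0.00501) and Hspe1 (−0.67, adjusted p = 0.00053) were lower. With wt mice 1 and 2 left out, 7 members passed and all were higher, with log2FC from 0.45 for Hsp90ab1 to 6.74 for Hspa1a, and Hspe1 was among them (0.54, edgeR adjusted p = 7e-04). With 1 surrogate variable, a number per mouse estimated from the counts, 6 members had an edgeR adjusted p under 0.05 in each comparison with wt: Hspa1a, Hspa1b, Dnajb1, Hsp90aa1, Hspa8 and Hsp90ab1, all higher. Then Hspa1a (log2FC 4.06 and 4.38) and Hspa1b (3.93 and 3.86) were also called. In that fit 5103 of 13488 genes had an adjusted p under 0.05 in Zmat3-/- against wt and 2378 of 13260 in TKO against wt, against 103 and 39 without the surrogate variable. The Xist level as a covariate and the replicate block gave no member an adjusted p under 0.05.

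**Figure D4:**
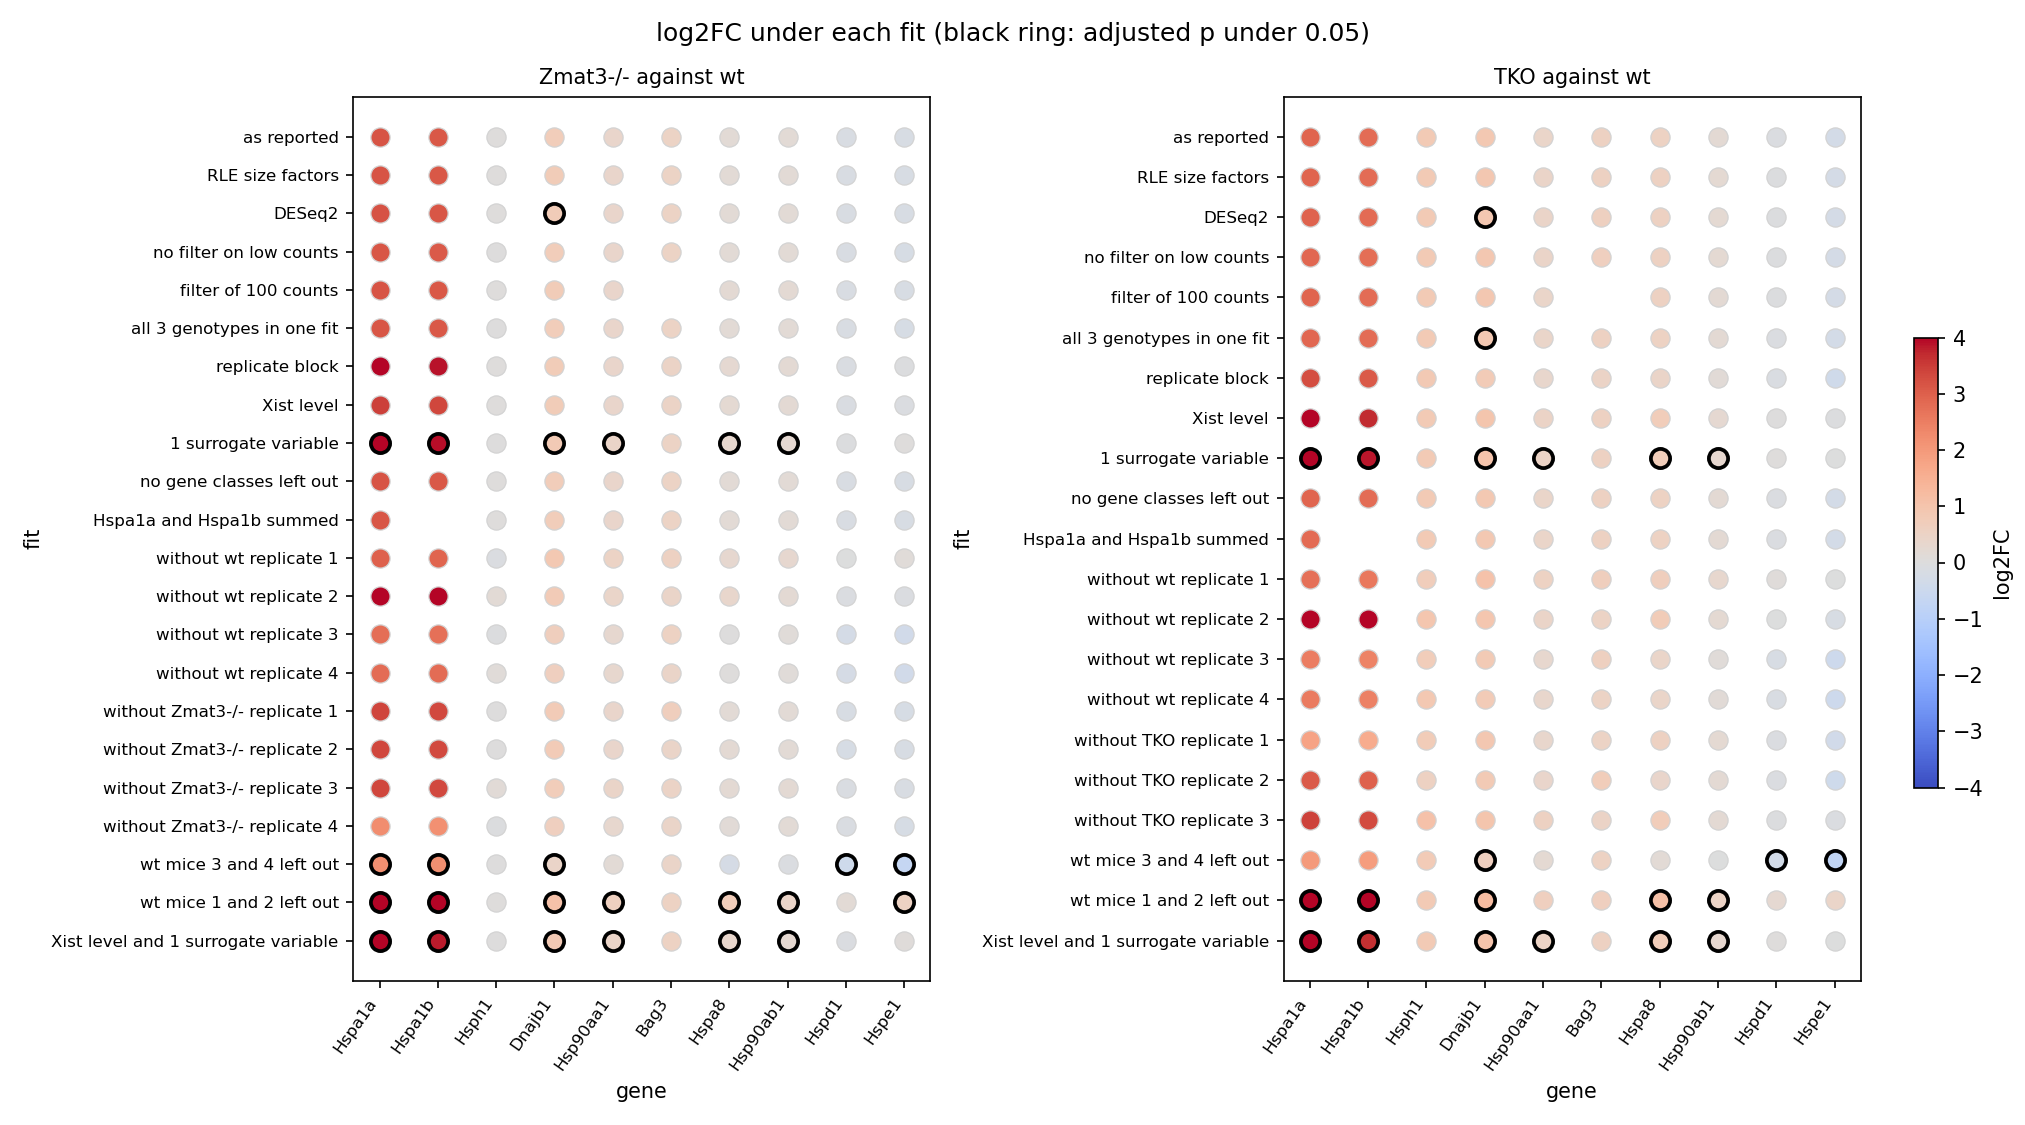
log2FC (colour) of each chaperone gene under each fit, for the comparisons with wt, with a black ring where the adjusted p was under 0.05 and the sum of Hspa1a and Hspa1b drawn at Hspa1a. Hspa1a, Hspa1b, Dnajb1, Hsp90aa1 and Bag3 are positive in every fit that tested them, and rings gather in the fits with a surrogate variable or without a wt pair.

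The immediate-early genes, which respond within minutes to stimulation or handling of cells, were on balance higher in the mutant mice. The 39 genes of that list added up to 2770, 2510, 1560 and 1560 CPM in wt mice 1 to 4, 3700, 3870, 3270 and 3830 CPM in Zmat3-/- mice 1 to 4, and 3810, 3440 and 4140 CPM in TKO mice 1 to 3. Every mutant mouse was above every wt mouse, and wt mice 3 and 4 were the lowest, as they were for Hspa1a. This list was chosen with earlier results of these data known. It holds genes that the study had named as differing between TKO and wt thymocytes, such as Klf4, Sik1, Arc, Dusp1, Dusp5 and Plk2. The counts that follow are therefore not independent of those results and serve as a description. Of the 38 tested, 11 had an edgeR adjusted p under 0.05 and were higher in Zmat3-/- against wt (0.4% of all genes), 10 in TKO against wt (0.249%) and 0 in TKO against Zmat3-/- (0.145%), where 2 had an unadjusted p under 0.05 and were higher (edgeR). None was lower at that adjusted p. Without adjustment, 21 were higher and 4 lower in each comparison with wt, the lower ones being Btg2, Egr1, Egr2 and Myc in both (named after their values were seen), and the log2FC was above 0 for 31, 31 and 18 of the 38. The part of this and of the mitochondrial share in the levels of the chaperone genes was not tested.

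Most other genes of the heat shock system did not pass the test. Of 79 listed genes (heat shock factors, other HSP70 and HSP110 proteins, J-domain cofactors, HSP70 cochaperones, the HSP90 family and its cochaperones, small heat shock proteins and the TRiC chaperonin), 69, 68 and 69 were tested in Zmat3-/- against wt, TKO against wt and TKO against Zmat3-/-. The edgeR adjusted p was under 0.05 for 1, 1 and 0 of them, against 0.764%, 0.294% and 0.221% of all genes. Without adjustment, p was under 0.05 for 7 higher and 3 lower genes in Zmat3-/- against wt (7.18% and 8.93% of all genes), 6 and 2 in TKO against wt (4.17% and 6.18%) and 2 and 0 in TKO against Zmat3-/- (2.26% and 2.23%). The gene that passed was Dnajb9, which encodes ERdj4, a J-domain cofactor of the endoplasmic reticulum. It had 18.7, 21.8, 19.2 and 22.7 CPM in wt mice 1 to 4, 59.9, 60.6, 51.8 and 59.5 CPM in Zmat3-/- mice 1 to 4, and 63.7, 57.4 and 68.4 CPM in TKO mice 1 to 3. Every mutant mouse was above every wt mouse, and the wt pairs overlapped. Its log2FC was 1.495 in Zmat3-/- against wt (SE 0.106, edgeR adjusted p = 0.000754) and 1.57 in TKO against wt (SE 0.126, adjusted p = 0.00243), and its adjusted p was under 0.05 in every fit that was run of these comparisons.

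The heat shock factors did not pass the test. Hsf1 was at 45.1 to 57.4 CPM in wt, 43.3 to 46.1 CPM in Zmat3-/- and 48.1 to 52.2 CPM in TKO mice, with a log2FC of −0.22 in Zmat3-/- against wt (SE 0.0957, edgeR adjusted p = 0.306). Hsf2 was at 21.8 to 26.2, 26.2 to 28.8 and 26.4 to 33.4 CPM, with a log2FC of 0.16 (SE 0.101, edgeR adjusted p = 0.456). Hspa5, which encodes the HSP70 of the endoplasmic reticulum, BiP, was at 159 to 205 CPM in wt, 244 to 262 CPM in Zmat3-/- and 269 to 283 CPM in TKO mice. All mutant mice were above all wt mice, and the log2FC was 0.52 (SE 0.103, edgeR adjusted p = 0.0682) and 0.63 (SE 0.137, adjusted p = 0.19) in the comparisons with wt. Dnajc7, a J-domain cochaperone of HSP70 and HSP90, was at 317 to 408, 247 to 273 and 253 to 287 CPM, and its log2FC was −0.41 (SE 0.107, edgeR adjusted p = 0.12) and −0.43 (SE 0.143, adjusted p = 0.41). The J-domain genes Dnaja2 and Dnajb4 had log2FC of 0.29 and 0.50 in Zmat3-/- against wt (edgeR adjusted p = 0.157 and 0.158) and Dnaja1 one of 0.62 in TKO against wt (adjusted p = 0.461). Bag4 and Hspa13 had log2FC of 0.33 and 0.43 in Zmat3-/- against wt (edgeR adjusted p = 0.216 and 0.277). Of the 13 alternative fits other than single mice left out, 6 gave Hspa5 an adjusted p under 0.05 in each comparison with wt. In Zmat3-/- against wt, Dnajc7 and Dnaja2 had one in 5, Dnajb4 in 4, and Bag4, Hspa13 and Hsf1 in 3. Among all genes, 12 to 7968 and 16 to 5829 had one over these fits. With single mice left out, these named genes had one in 0 fits. The smallest p in the lists in TKO against Zmat3-/- belonged to Dnaja4 (log2FC 0.54), Chordc1 (0.23), Hspb1 (−0.88), Hspb11 (−0.21), Hyou1 (0.15) and Dnaja1 (0.36), each with an edgeR adjusted p of 0.983. By list, the median log2FC in Zmat3-/- against wt lay between −0.22 for the heat shock factors and 0.21 for the other HSP70 and HSP110 genes. Of 65 listed genes in the RefSeq promoter table, 13 (20%) held 2 units before at least 1 start, against 14.5% of all 27025 genes there, and 1 (1.54%), Dnajb6, held 3 in a row, against 0.514%.

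**Figure D5:**
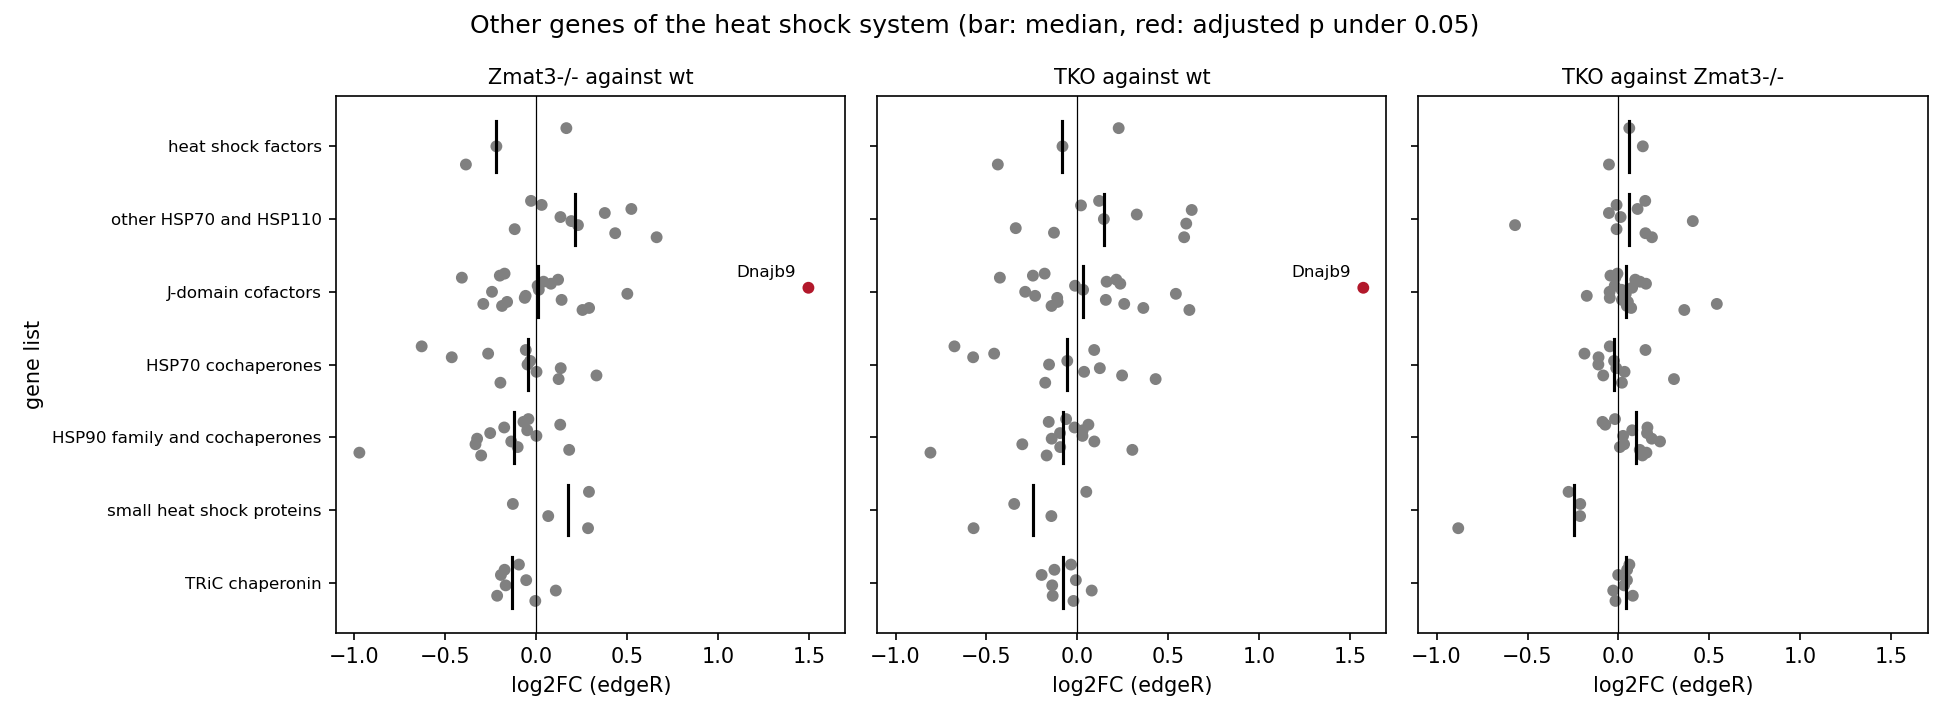
log2FC of the tested genes of each list in the 3 comparisons (points), with the median of each list (bar) and genes with an adjusted p under 0.05 in red. Dnajb9 stands apart in both comparisons with wt, and the medians lie near 0.

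Among the genes whose log2 CPM followed the summed level of Hspa1a and Hspa1b most closely over the 11 mice, of 11758 other protein-coding genes, were Col15a1 (r = 0.944), Tgm2 (0.932), Gm10382 (0.927) and Sh3bp5 (0.926). Pearson's r over mice of 3 genotypes also takes in differences between genotypes. Within genotypes it was 0.898, 0.882, 0.814 and 0.86, and Spearman's rho was 0.818, 0.791, 0.836 and 0.836. Without wt mice 3 and 4, which were farthest from the median, r was 0.839, 0.77, 0.842 and 0.742. Of the other members, r over the 11 mice was highest for Hsp90aa1 (0.9) and Dnajb1 (0.856) and lowest for Hspd1 (0.175). Without wt mice 3 and 4 these members were still the highest and the lowest, at 0.661 for Hsp90aa1, 0.554 for Dnajb1 and −0.728 for Hspd1. Within genotypes the order differed, and r was 0.833 for Hspa8, 0.808 for Hsp90aa1, 0.693 for Dnajb1, 0.514 for Hspd1 and −0.0018 for Bag3. These values describe 11 libraries and carry no test.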

How the data were processed

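RNA-seq of thymocytes of 4 wt, 4 Zmat3-/- and 3 TKO mice was used, grouped by the genotype in the labels. Libraries were made with the TruSeq RNA kit v2, which does not mark strand. The values are estimated counts per gene that the authors deposited as whole numbers, not normalized, after quantification with Salmon (nf-core/rnaseq, GRCm38.p6). Names and positions come from GENCODE M21, by Ensembl identifier (54166 of 54418 matched), and promoters from RefSeq.

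Each pair of genotypes was fitted alone in edgeR 4.0.16 (R 4.3.3), with TMM normalization, the two-sided quasi-likelihood F-test and Benjamini-Hochberg adjustment over all genes tested. A gene was tested if it reached 20 counts at the depth of the smallest library in at least as many mice as the smaller genotype had. Following the study, Xist, chromosome Y, rRNA genes and immunoglobulin pseudogenes were excluded. CPM use TMM factors over all 11 mice, log2 CPM a prior count of 2. The SE was taken as the size of the log2FC over the square root of F. The study used DESeq2 with sex and surrogate variables. The labels give no sex, so DESeq2 1.42.0, the Xist level and 1 surrogate variable (sva 3.50.0) were alternatives, with RLE size factors, other filters, a joint fit, Hspa1a and Hspa1b summed, a replicate block and each mouse left out. The fits without a pair of wt mice or with Xist and a surrogate variable together were added after seeing the data.

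Named were all 10 members, Hsf1, Hsf2, up to 6 listed heat shock genes with the smallest p per comparison, and the 5 genes most like Hspa1a and Hspa1b, of which 1 is not reported here. Dnajb6 was named after its sequence match was seen. The members and lists were chosen with earlier results of these data known. The listed B cell genes (8) added up to 491 to 862 CPM in wt, 474 to 519 CPM in Zmat3-/- and 524 to 541 CPM in TKO mice, and the erythroid genes (7) to 880 to 8560, 1150 to 5700 and 2680 to 3720 CPM. The test was checked on simulated counts.

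Same-numbered Zmat3-/- and wt mice deviated together from their group means (r = 0.127 to 0.339 over genes). The replicate number was fitted as a block as an alternative, while the main fits left the mice unpaired. The study does not describe pairs. The numbers 1 and 2 also mark the mice with high Xist in both groups, so likeness by number cannot be told apart from likeness by Xist level. For TKO mice 1 to 3 the correlation was 0.0734, 0.302 and 0.405 with wt and 0.195, 0.0102 and 0.174 with Zmat3-/-. The main fits did not pair these mice either, although the value of TKO mouse 3 with wt was above all those of Zmat3-/- mice with wt.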

Additional observations from a re-analysis of the deposited data

Results flagged for a closer look

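In 7 of 62 sets of 4 mice tested, 1 mouse lay apart from the other 3, with a gap to its nearest neighbour, as a share of the whole range, above Dixon's critical value, which chance gives in about 1 in 20 sets. All 7 were sets of Zmat3-/- mice, and several of them rest on the same counts. Zmat3-/- mouse 4 was the highest for Hspa1a (170 CPM against 35.9 to 38.1, a gap of 0.983 of the range), for Hspa1b (411 CPM against 83.1 to 90.4, gap 0.978) and for their sum (gap 0.98). The same mouse was the highest in the level of Hspa1a and Hspa1b per kilobase relative to Hspa8 (0.622 against 0.138 to 0.160, gap 0.954) and for Dnaja1 (336 CPM against 284 to 293, gap 0.831). Bag3 was lowest in Zmat3-/- mouse 1 (2.45 CPM against 3.97 to 4.23, gap 0.854), and Dnajb9 in Zmat3-/- mouse 3 (51.8 CPM against 59.5 to 60.6, gap 0.871).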

How the results depend on the processing

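No member was called, and none had an adjusted p under 0.05, in the comparisons with wt under RLE size factors, other filters on low counts, the Xist level, no gene classes left out, the summed Hspa1 genes, the replicate block or any mouse left out (0 to 0 members). Counts of members with an adjusted p under 0.05 were 1 with DESeq2 in both comparisons with wt and 1 with all 3 genotypes in one fit in TKO against wt. They were 6 with 1 surrogate variable and 6 with the Xist level and 1 surrogate variable, 2 of them called, in both comparisons. With wt mice 3 and 4 left out they were 5 (2 called) in Zmat3-/- against wt and 3 (0 called) in TKO against wt, and with wt mice 1 and 2 left out 7 and 5 (2 called in each). In TKO against Zmat3-/- the count was 1 with no filter on low counts, 1 with 1 surrogate variable and 0 to 2 with single mice left out. Over the alternatives other than single mice left out, the genes called of all tested ranged from 8 to 733 (43 as reported), 16 to 672 (32) and 12 to 45 (16) in the 3 comparisons, and with single mice left out from 12 to 47, 15 to 35 and 14 to 18. Over the former, those with an adjusted p under 0.05 ranged from 12 to 7968 (103), 16 to 5829 (39) and 16 to 90 (29). DESeq2 gave 1085, 381 and 73 genes with an adjusted p under 0.05. The cause was not tested.

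The inducible minus constitutive distance was 0.36 in Zmat3-/- against wt and 0.52 in TKO against wt without Hspa1a and Hspa1b. With each mouse left out it was 1.36 to 1.84, 1.20 to 1.77 and −0.39 to 0.18 in the 3 comparisons.

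Signs turned for constitutive members, inducible members and other named genes. In Zmat3-/- against wt, Hspe1 had a log2FC of 0.061 with 1 surrogate variable, 0.077 with the Xist level added to it and 0.54 with wt mice 1 and 2 left out, when Hspd1 had 0.17. With wt mice 3 and 4 left out, Hspa8 had −0.23, Hsp90ab1 −0.067, Hspb1 −0.31 and Hspb11 −0.28. In TKO against wt, Hspd1 had 0.016 with the Xist level, 0.034 with 1 surrogate variable, 0.036 with both and 0.25 with wt mice 1 and 2 left out. Hspb11 had 0.0024 with 1 surrogate variable, 0.0067 with the Xist level added and 0.29 with wt mice 1 and 2 left out, when Hspe1 had 0.43, Hsf1 0.048 and Hspb1 0.45. Hsp90ab1 had −0.029 with wt mice 3 and 4 left out. In TKO against Zmat3-/-, Bag3 had −0.021 with 1 surrogate variable and −0.029 with the Xist level added.

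With single mice left out, signs turned in Zmat3-/- against wt for Hsph1 (−0.088 to 0.16), Hspe1 (−0.36 to 0.10) and Hspb11 (−0.070 to 0.19), and in TKO against wt for Hspd1 (−0.18 to 0.064) and Chordc1 (−0.039 to 0.18). In TKO against Zmat3-/- they turned for Hspa1a (−1.45 to 0.67), Hspa1b (−1.55 to 0.64), Hsp90aa1 (−0.079 to 0.19), Bag3 (−0.074 to 0.22), Hspe1 (−0.25 to 0.11), Dnajb4 (−0.034 to 0.16), Dnajc7 (−0.053 to 0.020) and Dnaja2 (−0.030 to 0.16).

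With the replicate block, Hspa1a had a log2FC of 4.02 (edgeR adjusted p = 0.28), Hspa1b 3.88 (adjusted p = 0.272) and Dnajb1 0.77 (adjusted p = 0.256) in Zmat3-/- against wt, and the block changed the call of no member. In TKO against wt and TKO against Zmat3-/-, where the numbers are likewise not known to mark pairs, the block gave 16 and 16 genes called, against 32 and 16 without it. The log2FC in TKO against Zmat3-/- was then 0.080 for Hspa1a and 0.027 for Hspa1b.

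Depth limits Hspa1a in wt mice 3 and 4 (8 and 24 counts) and leaves Bag3 under the filter of 100 counts. The labels give no sex, so the fit of the study could not be repeated.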
